A study of Mus musculus with 20 samples.

Results

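The genes described here are splicing and hnRNP factors, chosen by symbol: the SR proteins (Srsf with a number), the hnRNP family (Hnrnp), the subunits of SF3a and SF3b (Sf3a and Sf3b with a number) and the protein components of the small nuclear ribonucleoproteins, or snRNPs (Snrp). On the array, 47 of 18193 genes with a probe set of their own symbol alone fit these patterns, namely 10 Srsf, 19 Hnrnp, 9 Sf3 and 9 Snrp genes. Where a gene had several such probe sets, the one with the highest mean over all arrays was used. Hnrnpa3, Snrpa, Snrpd1 and Snrpd2 lie on probe sets shared with other symbols and were not analysed here, nor was Srsf7.

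RNA was measured in 10 populations of haematopoietic cells sorted by surface markers from mice of the C57BL/6 background, with 2 biological replicates each and 20 arrays in all (Affymetrix Mouse Genome 430 2.0). The populations are KSL, a name in wide use for cells enriched in stem and early progenitor cells, Ter119-positive cells (Erythroblast), cells negative for lineage markers (LinNeg), B220-positive B cells (B), CD4 and CD8 T cells (CD4T and CD8T), NK1.1-positive cells (NK), cells positive for CD3ε and NK1.1 (NKT), Gr-1-positive cells (Neutrophil) and Mac-1-positive cells (Monocyte, which the labels call monocytes or macrophages). No group carries a transgene, a deletion or a treatment in the labels, and the sources used here give no age, tissue of origin or number of animals. The labels call the replicates biological without saying whether they came from separate animals, so the p-values measure the spread between these samples. Each array took RNA from 3000 cells, amplified in 2 cycles. Values are linear probe set intensities as deposited, on a scale where every array has a trimmed mean of 100, and differences are on the log2(intensity + 6.75) scale with their limma standard error.

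Introns are removed from pre-mRNA by the spliceosome, which is built anew on each intron from snRNPs. Each snRNP is a small RNA wrapped by a ring of Sm proteins, several of them encoded by Snrp genes, and carries proteins of its own; the U2 snRNP, which finds the branch point, holds SF3a and SF3b. SR proteins mostly bind exonic enhancers and recruit the spliceosome, hnRNP proteins coat the transcript and often repress exons, and the balance of both sets which exons are kept. In blood cells the best known case is CD45, whose variable exons are skipped under the control of Hnrnpll, and subunits such as SF3B1 and SRSF2 are mutated in human myelodysplasia.

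Every array had its closest match in the other array of its population (Pearson r of 0.954 to 0.972 across genes, which are not independent replicates), and Erythroblast stood apart, with no r above 0.705 to any other population. The labels were checked against 9 lists of marker genes. The B, T, CD4, CD8, NK, KSL and Erythroblast lists had their highest summed intensity in the populations they name. The monocyte list did not: the summed level of 8 monocyte genes was 19971 and 17194 in NK, against 7156 and 14075 in Monocyte. The 6 neutrophil genes summed to 62073 and 53000 in Neutrophil, 47757 and 39422 in Monocyte, 10275 and 8135 in NK, and at most 2092 elsewhere. The Monocyte arrays therefore carry neutrophil transcripts such as Camp (10821, against 12205 in Neutrophil), and the NK arrays carry monocyte transcripts such as Csf1r (6364, against 4843 in Monocyte). No marker stood at exactly 0 on any array. For the comparisons over several populations, the counts of calls are given with and without NK and Monocyte.

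Of the 47 genes, 46 had a population mean above the median of all values and were tested. The exception was Snrpn, a variant Sm gene best known from brain, whose intensity lay between 1.82 and 19.9 over the 20 arrays. The limma F test over the 10 populations found 44 of the 46 to differ (Benjamini-Hochberg adjusted p under 0.05), where 76.8% of all 14063 genes tested did so. Srsf5, an SR protein gene, did not pass it (adjusted p 0.46), nor did the dim probe set of Hnrnpl, which binds CA repeats (adjusted p 0.20). The range between the highest and the lowest population mean had a median of 1.59 log2 units over these genes and 2.15 over all genes tested. The widest ranges were those of Hnrnpll (5.34), Snrpf (3.62), Hnrnpa1 (3.39), Hnrnpa0 (3.34), Snrpg (3.31) and Snrpa1 (3.16). The narrowest belonged to Sf3b6 (0.45), which contacts the branch point adenosine, Hnrnpa2b1 (0.60), Srsf5 (0.65) and Hnrnpk (0.72), which binds C-rich stretches. These ranges are those of the brightest probe sets. By its other probe sets, Hnrnpa2b1 differed by 1.22, 0.145 and 0.54 in Erythroblast minus LinNeg, against 0.13 by the brightest. For Hnrnpk the others gave 0.24, 1.13 and 1.40 in Erythroblast minus the other 7 mature populations, against 0.36.

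The population with the highest mean was LinNeg for 20 of the 46 genes (43.5%, against 10.5% of all genes tested) and Erythroblast for 17 (37%, against 24.6%). Neutrophil had the lowest mean for 21 (45.7%, against 20.5%). KSL had neither the highest nor the lowest of any, while it was highest for 11.3% and lowest for 7.82% of all genes tested. The families differed in where they peaked. Of 19 Hnrnp genes 11 were highest in Erythroblast, and so were 5 of 10 Srsf genes, but 1 of 8 Snrp genes and 0 of 9 Sf3 genes. LinNeg was highest for 7 of 9 Sf3 and 5 of 8 Snrp genes. Neutrophil was lowest for 6 of 8 Snrp, 6 of 10 Srsf, 4 of 9 Sf3 and 5 of 19 Hnrnp genes. Some peaks were near ties. In Erythroblast the gap to the second highest mean was 0.06 log2 units for Hnrnpr and 0.09 for Srsf6, against 0.84 for Srsf1 and 0.71 for Hnrnpd. In LinNeg it was 0.003 for Snrpb. Srsf5 and Hnrnpl, both counted in Erythroblast, did not pass the F test. The counts are on the deposited scale, and Erythroblast levels moved with scaling, as given below. In bulk samples of this kind, fewer cells of a type and less RNA per cell cannot be told apart, and a scaled array shows a gene's share of the signal.

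**Figure D1:**
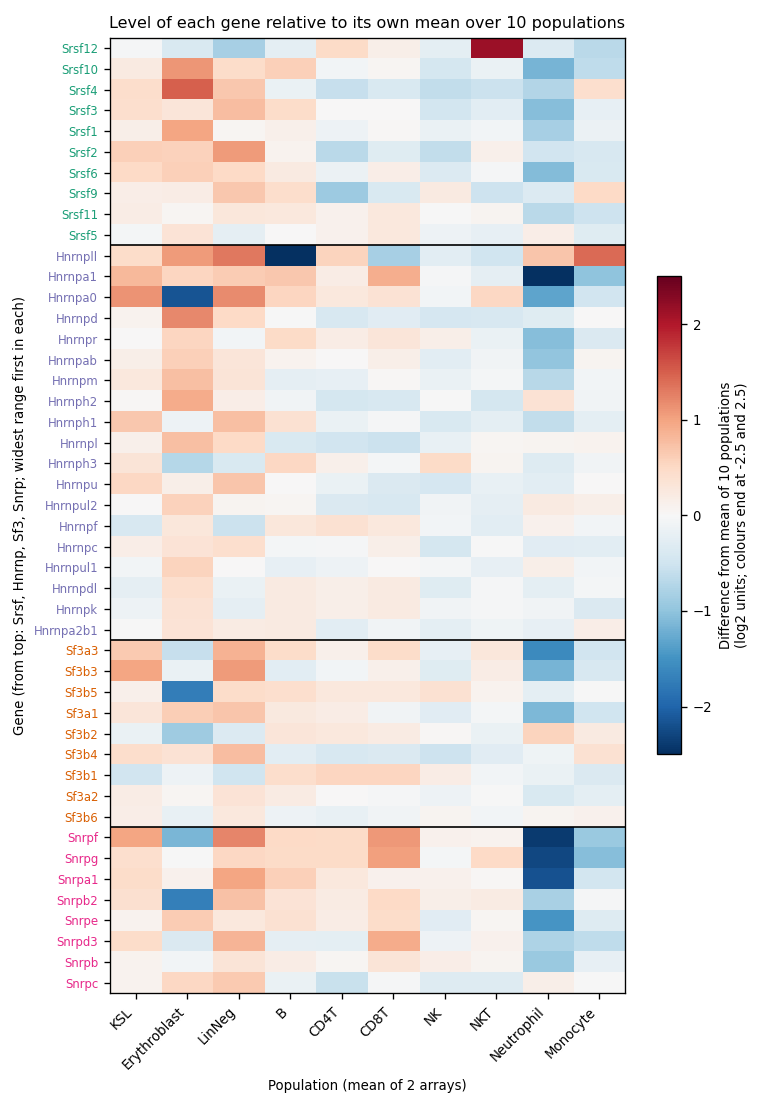
Difference of each of the 46 tested genes from its own mean over the 10 populations (log2 units; red higher, blue lower; mean of 2 arrays), with genes in rows by family and populations in columns. The Neutrophil column is blue for most Snrp, Srsf and Sf3 genes, the Erythroblast column is red for most Hnrnp and Srsf genes with Hnrnpa0, Snrpb2 and Sf3b5 in blue, and Hnrnpll is blue in B.

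For 8 comparisons, all fitted over the whole array, a call needed both an adjusted p under 0.05 and a difference of 1 log2 unit or more. These p-values rest on the spread between the 2 arrays of a population, pooled over the populations, and where a side holds several populations the spread among those does not enter them. KSL against the 8 mature populations had 3 of 46 genes called, all higher (6.52%, against 23.2% of all genes tested; 4 genes with NK left out and 3 with Monocyte left out). KSL against LinNeg had 0 called by limma, where 5.53% of all genes were (3.07% higher and 2.45% lower). Of these genes, 6 of the 46 had an unadjusted p under 0.05, 1 (Hnrnpll, lower by -0.85) had an adjusted p under 0.05 at any size (8.60% of all genes, 4.59% higher), and 0 passed limma's treat test against a difference of 1. Erythroblast against LinNeg had 7 called, all lower (15.2%, against 43.9%). Without a minimum size 14 were higher and 15 lower, where 53.4% of all genes passed (18.9% higher and 34.6% lower). Erythroblast against the other 7 mature populations had 6 higher and 4 lower (21.7%, against 46.4%), and the counts were the same with NK left out, and 7 and 5 with Monocyte left out. Scaling moved the Erythroblast comparisons as a whole: the median over all genes was -0.14 against the mature cells and -0.19 against LinNeg as deposited, and 0.02 and -0.06 after quantile normalization. The median of the 46 genes was 0.39 and -0.12 as deposited, and 0.18 and -0.40 after it.

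Lymphoid cells, meaning B, both T populations, NK and NKT, set against myeloid cells, meaning Neutrophil and Monocyte, had 7 genes higher and 1 lower (17.4%, against 29.7% of all genes, 17.6% higher and 12.1% lower). Without a minimum size 27 were higher and 6 lower, where 55.2% of all genes passed (32.3% higher and 22.8% lower). With NK left out 9 were higher and 1 lower, with Neutrophil alone as the myeloid side 15 and 1, and with Monocyte alone 4 and 1. Neutrophil against Monocyte had 8 lower and 0 higher (17.4%, against 12.2%; 9.56% of all genes were called lower and 2.62% higher). Without a minimum size 18 were lower and 0 higher, where 13.7% of all genes were lower and 5.57% higher. B against CD4T and CD8T had 1 higher and 1 lower (4.35%, where 5.91% of all genes were called higher and 7.08% lower). Without a minimum size 5 were higher, against 8.71% of all genes, and 1 lower, against 10.6%. Finally, CD4T against CD8T had 1 higher and 1 lower (4.35%, against 3.21%; 2.13% of all genes were called higher and 1.07% lower). The same 2 genes passed without a minimum size, where 4.10% of all genes did (2.57% higher and 1.53% lower). Only in Neutrophil against Monocyte and in CD4T against CD8T was the share above that of all genes, and no test of that difference was run. Of the 40 calls, 35 had groups whose arrays did not overlap (87.5%), and of the 24899 calls over all genes 77.1% did, so this share is no result about these genes.

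**Figure D2:**
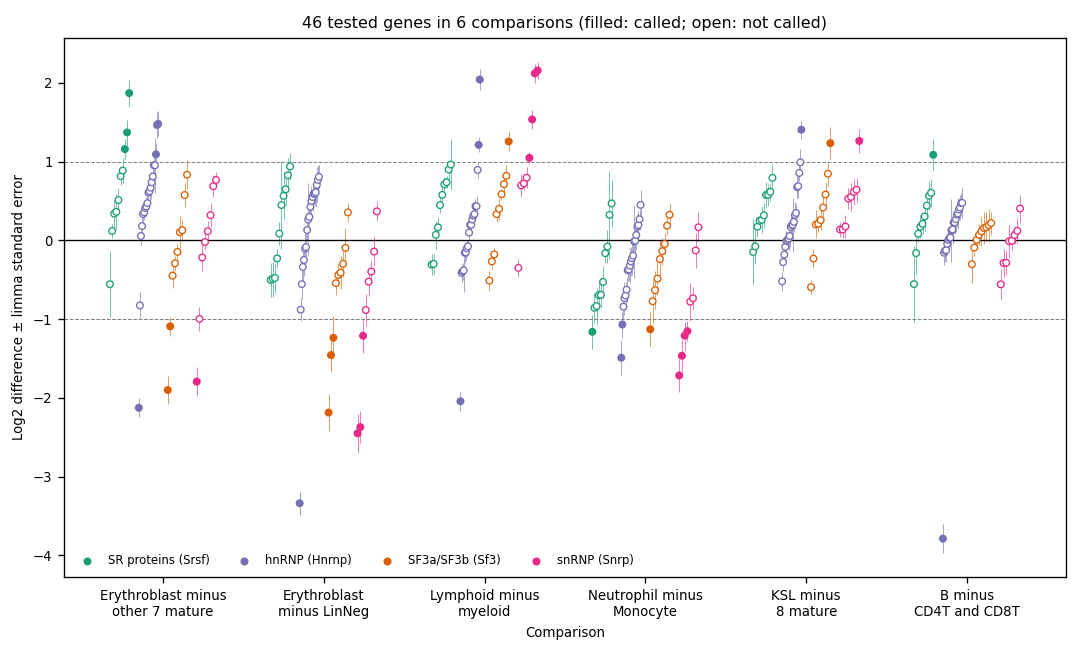
Log2 difference (points) with its limma standard error (bars) of the 46 tested genes in 6 of the comparisons, coloured by family; filled points were called, and dashed lines mark a difference of 1. The Snrp genes hold 4 of the 7 calls above 1 in lymphoid minus myeloid cells, and Hnrnpll in B minus T cells is the lowest point at -3.79.

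The snRNP protein genes had the widest median range of the 4 families, 2.27 log2 units over 8 genes, near the 2.15 of all genes tested. Several were higher in lymphoid than in myeloid cells. The median lymphoid minus myeloid difference was 0.92 over the 8 Snrp genes, against 0.11 over all genes tested, and 4 of the 8 were called higher, with 0 lower, where 17.6% of all genes were called higher and 12.1% lower. Snrpg, an Sm ring protein gene, ran from 2823 through a median of 4224.5 to 6646 over the 10 lymphoid arrays, against 509 and 754 in Neutrophil and 1461 and 1424 in Monocyte. The lowest lymphoid array lay above the highest myeloid one, and the difference was 2.16 ± 0.11 (limma adjusted p 1.9e-12). A second Snrpg probe set gave 0.79, under the size needed for a call.

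Snrpf, the gene of a second Sm protein, ran from 315 through 395 to 674 in the lymphoid arrays, against 51.2 and 55.1 in Neutrophil and 153 and 164 in Monocyte. The sides did not overlap (2.12 ± 0.12, adjusted p 1.2e-11). Snrpa1, which encodes U2 A′, a protein of the U2 snRNP, ran from 593 through 702 to 979 in the lymphoid arrays, against 93.2 and 179 in Neutrophil and 441 and 440 in Monocyte, and its 2 other probe sets gave 1.33 and 1.82 beside 1.54 ± 0.12. Snrpe, another Sm protein gene, had lymphoid arrays from 2678 through 3750 to 4773, against 1080 and 1327 in Neutrophil and 2593 and 2746 in Monocyte. Here the sides overlapped through Monocyte replicate 2 (1.05 ± 0.07, adjusted p 3.8e-10), and the difference was 0.99 with B left out and 0.47 with Monocyte alone as the myeloid side, both under 1. It was also under 1 after array median centring (0.95) and without Neutrophil replicate 1 (0.97).

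These 4 genes were also lower in Neutrophil than in Monocyte, on the array values just given. The differences were -1.71 ± 0.21 for Snrpa1 (adjusted p 1.2e-05), -1.46 ± 0.20 for Snrpf (4.4e-05), -1.21 ± 0.18 for Snrpg (9.3e-05) and -1.15 ± 0.13 for Snrpe (4.8e-06). The arrays of the 2 populations did not overlap in any of the 4. Over the 8 Snrp genes the median was -0.97, against -0.08 over all genes, and 4 were called lower and 0 higher, where 9.56% and 2.62% of all genes were. The other 4 tested genes were not called: Snrpb and Snrpd3, of the Sm ring, averaged 1275 and 334 in Neutrophil, against 2122 and 365 in Monocyte, Snrpb2, the U2 B″ protein, 246 against 417, and Snrpc, the C protein of the U1 snRNP, 703 against 625. Without Neutrophil replicate 1, Snrpg differed by -0.93 and was not called.

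Several other measures also differed between these populations. The 3′ to 5′ ratio of the Gapdh control probe sets was 2.48 and 2.36 in Neutrophil and 3.34 and 3.10 in Monocyte, against 3.47 to 5.71 in the lymphoid arrays. The b-Actin ratio was 1.34 and 1.36 in Neutrophil and 1.43 and 1.48 in Monocyte, against 1.68 to 2.61 in the lymphoid arrays. All 11 cell cycle genes were called lower in Neutrophil than in Monocyte, with summed intensities of 3214 and 5056 against 15508 and 12975, and 7 of 11 were called lower in lymphoid than in myeloid cells (9.56% and 12.1% of all genes were called lower in these comparisons). In lymphoid against myeloid cells 1 of the 11 cell cycle genes was called higher, where 17.6% of all genes were. The part of these measures in the Snrp differences was not tested. The 4 differences from the lymphoid cells had the same sign with Neutrophil alone and with Monocyte alone as the myeloid side. The Monocyte arrays carry the neutrophil transcripts given above, so Monocyte alone is not a side free of them. The part of those transcripts in the differences was not tested. With Monocyte alone Snrpg differed by 1.55 and Snrpf by 1.39, while Snrpa1 (0.68) was not called.

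**Figure D3:**
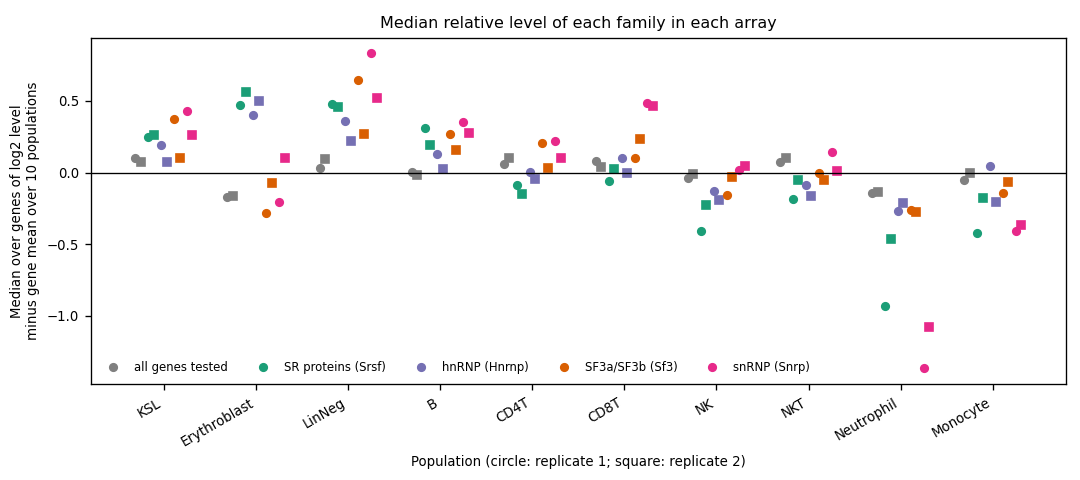
Median over the genes of a family of the log2 level minus the gene's mean over 10 populations (y axis, log2 units), for each of the 20 arrays (circle, replicate 1; square, replicate 2), with all 14063 genes tested in grey. The Snrp points are at -1.37 and -1.08 in Neutrophil and at 0.83 and 0.52 in LinNeg; the Srsf and Hnrnp points are above 0.39 in Erythroblast.

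Since these 4 genes moved together, their promoters are shown, from 250 bases before to 50 after the transcript start in RefSeq (GRCm38.p6, 5′ to 3′ on the gene's strand). Capitals mark CCGGAAG, the core of many ETS factor sites (reverse strand CTTCCGG), and CCAAT, the box bound by NF-Y (reverse strand ATTGG); the letters of these motifs cannot overlap each other, but Snrpe has 2 matches of the first that overlap on opposite strands. Snrpg lies at chr6:86371290-86371589 (+), Snrpf at chr10:93589609-93589908 (-), Snrpe at chr1:133610231-133610530 (-) and Snrpa1 at chr7:66060086-66060385 (+).
Snrpg: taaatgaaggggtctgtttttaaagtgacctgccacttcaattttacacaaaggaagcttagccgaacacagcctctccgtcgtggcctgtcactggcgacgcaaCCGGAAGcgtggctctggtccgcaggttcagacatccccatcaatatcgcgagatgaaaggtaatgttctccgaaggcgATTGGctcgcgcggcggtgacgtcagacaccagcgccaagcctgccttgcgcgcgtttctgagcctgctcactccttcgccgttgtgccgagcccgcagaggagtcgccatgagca
Snrpf: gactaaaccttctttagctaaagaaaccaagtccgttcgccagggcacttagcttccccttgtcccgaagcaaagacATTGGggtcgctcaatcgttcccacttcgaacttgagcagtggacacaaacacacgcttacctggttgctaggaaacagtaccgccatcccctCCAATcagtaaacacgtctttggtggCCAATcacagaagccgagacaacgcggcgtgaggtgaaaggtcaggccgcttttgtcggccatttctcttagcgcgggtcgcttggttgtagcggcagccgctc
Snrpe: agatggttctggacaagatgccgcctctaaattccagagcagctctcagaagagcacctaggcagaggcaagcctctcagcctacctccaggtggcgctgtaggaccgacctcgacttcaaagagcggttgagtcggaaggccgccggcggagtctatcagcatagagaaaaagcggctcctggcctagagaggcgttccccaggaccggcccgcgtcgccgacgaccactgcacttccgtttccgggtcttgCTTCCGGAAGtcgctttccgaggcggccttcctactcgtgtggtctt
Snrpa1: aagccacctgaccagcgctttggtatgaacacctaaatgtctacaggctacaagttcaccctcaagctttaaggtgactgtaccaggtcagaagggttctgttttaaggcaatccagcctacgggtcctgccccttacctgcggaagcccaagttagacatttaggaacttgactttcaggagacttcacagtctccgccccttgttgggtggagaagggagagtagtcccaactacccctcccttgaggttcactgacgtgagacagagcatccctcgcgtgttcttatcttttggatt
Snrpg has 1 match of each motif, Snrpf has 3 of CCAAT, Snrpe has the 2 overlapping CCGGAAG and Snrpa1 has neither, so no capital stretch is common to the 4. A match describes the letters and not a bound site.

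Promoters were listed for 42 of the 47 genes, 58 in all; Hnrnpll, Hnrnpul2, Sf3b4, Sf3b5 and Snrpb had no entry. CCGGAAG on either strand stood in 20 of the 58 (34.5%), against 11.6% of 21263 promoters of protein-coding genes and 8.86% of all 32851. By gene it was found in 15 of 42, that is 6 Sf3, 4 Snrp, 3 Srsf and 2 Hnrnp genes. CCAAT stood in 46.6%, against 38.2% of those of coding genes, and the GC box GGGCGG (reverse CCGCCC, whose end bases can overlap either of the others) in 67.2% against 46.2%. The other 5 motifs searched on both strands are given against the promoters of coding genes as well. The YY1 motif AAGATGG was in 3.45% of the promoters against 6.24%. The E-box CACGTG was in 6.9% against 7.84%, and the NRF1 motif in 1.72% against 1.33%. The TATA box TATAAA was in 10.3% against 12.6%. The GATA motif AGATAA was in 6.9% against 9.65%.

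In Erythroblast the snRNP genes were split. Snrpb2 had 92.6 and 168 in Erythroblast, against 773 and 659 in LinNeg (-2.45 ± 0.24, adjusted p 6.7e-08), and Snrpf had 108 and 171, against 771 and 692 (-2.37 ± 0.20, adjusted p 7.3e-09). Neither overlapped. Snrpe went the other way without reaching a call, with 5015 and 5247 in Erythroblast, against 3973 and 3968 in LinNeg (0.37 ± 0.13, adjusted p 0.019), and its mean was highest in Erythroblast of the 10 populations. Snrpg had 2505 and 3597 in Erythroblast, against 4414 and 4227 in LinNeg (-0.52 ± 0.18). Against the other 7 mature populations, whose arrays ran from 191 through 471 to 611, Snrpb2 was lower by -1.79 ± 0.18 (adjusted p 5.6e-08; other probe set -1.05), and the mean over its probe sets gave -0.97. The family median was 0.05 in that comparison and -0.22 after quantile normalization, so its direction depended on the scaling, while against LinNeg it was -0.70 and -1.04.

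Snrpd3 had 474 and 421 in Erythroblast, against 1292 and 841 in LinNeg, and was called lower (-1.21 ± 0.22, adjusted p 0.00014). Its 2 dimmer probe sets pointed the other way (0.26 and 1.21), the mean over all 3 gave 0.09, and without LinNeg replicate 1 the difference was -0.90. The call was therefore absent under both alternatives. Snrpd3 was also called lower in CD4T (478 and 486) than in CD8T (1108 and 1078), by -1.17 ± 0.22 (adjusted p 0.0042). The arrays did not overlap, and the other probe sets gave -0.86 and -0.04.

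Among the SF3a and SF3b subunits of the U2 snRNP, 3 of 9 were called lower in Erythroblast than in LinNeg and 0 higher, a share close to that of all genes (29.3% lower and 14.6% higher). The family median was -0.44, against -0.19 over all genes tested. Sf3b5, a small SF3b subunit, had 337 and 426 in Erythroblast, against 2004 and 1524 in LinNeg (-2.19 ± 0.24, adjusted p 2.2e-07). It was also lower than in the other 7 mature populations, whose arrays ran from 872 through 1520 to 1993 (-1.90 ± 0.18). A second Sf3b5 probe set differed by -0.68 and -0.34, both under the size of a call. Sf3a3 had 217 and 352 in Erythroblast, against 856 and 694 in LinNeg (-1.46 ± 0.22; other probe set -1.19), and Sf3b3 had 222 and 355, against 812 and 555 (-1.24 ± 0.27; other probe set -0.85). Sf3b3 fell short of 1 without LinNeg replicate 1 (-0.96) or Erythroblast replicate 1 (-0.91).

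Sf3b3 was also 1 of the 3 genes higher in KSL than in the mature populations. It had 687 and 576 in KSL, while the 16 mature arrays ran from 119 through 277 to 385 (1.24 ± 0.20, adjusted p 7.1e-05; other probe set 0.63, mean of both 0.93). Sf3a3 was higher in lymphoid arrays (323 through 508 to 604), against 121 and 146 in Neutrophil and 351 and 256 in Monocyte (1.26 ± 0.13, adjusted p 6.1e-08; other probe set 1.29), and the sides overlapped through Monocyte replicate 1. With Monocyte alone as the myeloid side it differed by 0.69 and was not called. In Neutrophil against Monocyte the same values gave -1.13 ± 0.22 (adjusted p 0.00096), but the other probe set gave 0.04, quantile normalization -0.96, and leaving out Monocyte replicate 1 -0.91. Sf3b2 had 816 and 1062 in Erythroblast, while the other mature arrays ran from 1469 through 1994 to 2585 (-1.09 ± 0.12, adjusted p 1.1e-07). Its 6 other probe sets lay between -2.34 and 0.45, with 1 of them positive, and the mean over its probe sets gave -0.57, a value under the size of a call. It differed by -0.37 without probe sets marked as shared, by -0.99 after array median centring and by -0.90 without Erythroblast replicate 1, none of them called.

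Sf3b1, the subunit that clamps the branch point helix, was not called in any of the 8 comparisons. Its arrays lay between 1618 and 1750 in KSL and LinNeg and between 3169 and 3699 in B, CD4T and CD8T. The other 5 populations lay between these, from 1810 and 1884 in Monocyte to 2812 and 2557 in NK, and Erythroblast and Neutrophil overlapped. The limma F test over the 10 populations gave an adjusted p of 1.6e-07. All these values are from the brightest probe set, which differed by 0.59 in lymphoid minus myeloid cells. Other Sf3b1 probe sets gave 0.10, 0.52 and -0.14 there, with their highest means in Erythroblast, CD4T and KSL in that order. The population with the highest mean therefore depended on the probe set. In KSL minus the 8 mature populations the brightest gave -0.59, and the others gave -0.61, -0.67 and 0.65 in the same order. The last of these is the dimmest, with a mean intensity of 58.6. Sf3b6 had the smallest range of all, with arrays between 1136 and 1672.

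The SR protein genes leaned towards Erythroblast among the mature cells. Of 10, 3 were called higher there than in the other 7 mature populations and 0 lower, where 17.6% of all genes tested were called higher and 28.8% lower. The family median was 0.66 against -0.14 over all genes, and 0.39 against 0.02 after quantile normalization. Srsf4 had 1952 and 2119 in Erythroblast, while the 14 other mature arrays ran from 312 through 535 to 1129 (1.87 ± 0.16, adjusted p 6.1e-09). Srsf10, which represses splicing when dephosphorylated, had 1001 and 1128, while the others ran from 199 through 452 to 776 (1.37 ± 0.16, adjusted p 2.4e-07). Srsf1, a general splicing activator, had 7490 and 6348, while the others ran from 1699 through 3126 to 4214 (1.16 ± 0.13, adjusted p 1.4e-07). None of the 3 overlapped the other mature arrays.

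The 5 other Srsf1 probe sets gave differences from 1.05 to 2.00 and the 3 other Srsf10 probe sets from 1.84 to 2.35, all of the same sign. The promoters of these 2 genes are shown because every probe set above the filter was higher by more than 1, with the same capitals and source as above, Srsf1 at chr11:88047123-88047422 (+) and Srsf10 at chr4:135855821-135856120 (+).
Srsf1: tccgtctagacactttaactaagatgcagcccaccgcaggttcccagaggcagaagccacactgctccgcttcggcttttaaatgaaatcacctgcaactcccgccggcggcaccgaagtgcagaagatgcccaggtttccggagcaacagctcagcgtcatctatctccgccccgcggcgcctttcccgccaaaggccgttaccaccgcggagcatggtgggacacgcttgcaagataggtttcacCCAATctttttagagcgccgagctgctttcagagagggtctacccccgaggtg
Srsf10: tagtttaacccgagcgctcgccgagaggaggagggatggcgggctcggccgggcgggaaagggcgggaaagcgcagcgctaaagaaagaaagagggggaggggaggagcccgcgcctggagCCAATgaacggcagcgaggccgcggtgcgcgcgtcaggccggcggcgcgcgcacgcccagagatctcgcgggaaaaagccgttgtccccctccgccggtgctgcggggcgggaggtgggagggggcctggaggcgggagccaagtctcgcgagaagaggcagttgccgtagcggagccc
Each has 1 CCAAT and no CCGGAAG.

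Against LinNeg the same genes did not reach a call in Erythroblast. Srsf1 differed by 0.94 ± 0.17 (adjusted p 9.5e-05) and Srsf4 by 0.83 ± 0.22 (0.0034), each with both Erythroblast arrays above both LinNeg arrays. The family median was 0.27 on the deposited scale and -0.09 after quantile normalization, so its direction depended on the scaling. Srsf2, which binds exonic enhancers, had 1075 and 1202 in Erythroblast, against 1801 and 1444 in LinNeg (-0.50 ± 0.21, adjusted p 0.056). Other Srsf2 probe sets, all dimmer, gave -0.01, 0.92 and 1.53, so the direction for this gene depended on the probe set. The 11 cell cycle genes were also read in Erythroblast. All 11 were called higher than in the other mature populations, where 17.6% of all genes were. Against LinNeg 7 of the 11 were called higher and 0 lower, where 14.6% and 29.3% of all genes were. Their summed intensities were 57452 and 50886 in Erythroblast, against 3214 to 15508 in the other mature arrays and 17397 and 18301 in LinNeg. The Gapdh 3′ to 5′ ratio was 5.86 and 6.10 in Erythroblast, against 2.36 to 5.71 in the other mature arrays. The b-Actin ratio was 2.73 and 2.23 in Erythroblast, against 1.34 to 2.61, so replicate 2 lay within the other arrays. The part of the cell cycle genes or of either ratio in the Srsf differences was not tested.

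In Neutrophil, 1 of 10 SR genes was called lower than in Monocyte, close to the 9.56% of all genes. Srsf4 had 312 and 581 in Neutrophil, against 1129 and 816 in Monocyte (-1.16 ± 0.22, adjusted p 0.00086), and it fell short of 1 without Neutrophil replicate 1 (-0.72) or Monocyte replicate 1 (-0.93). The family median was -0.61 against -0.08 over all genes. Srsf9 had 507 and 554 in B, while the CD4T and CD8T arrays were 229 and 181, and 253 and 346 (1.09 ± 0.20, adjusted p 0.00034); without CD8T replicate 1 it differed by 0.98. Srsf12 was dim apart from NKT, with 51.8 and 54.2 there and at most 19.1 on any other array.

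**Figure D4:**
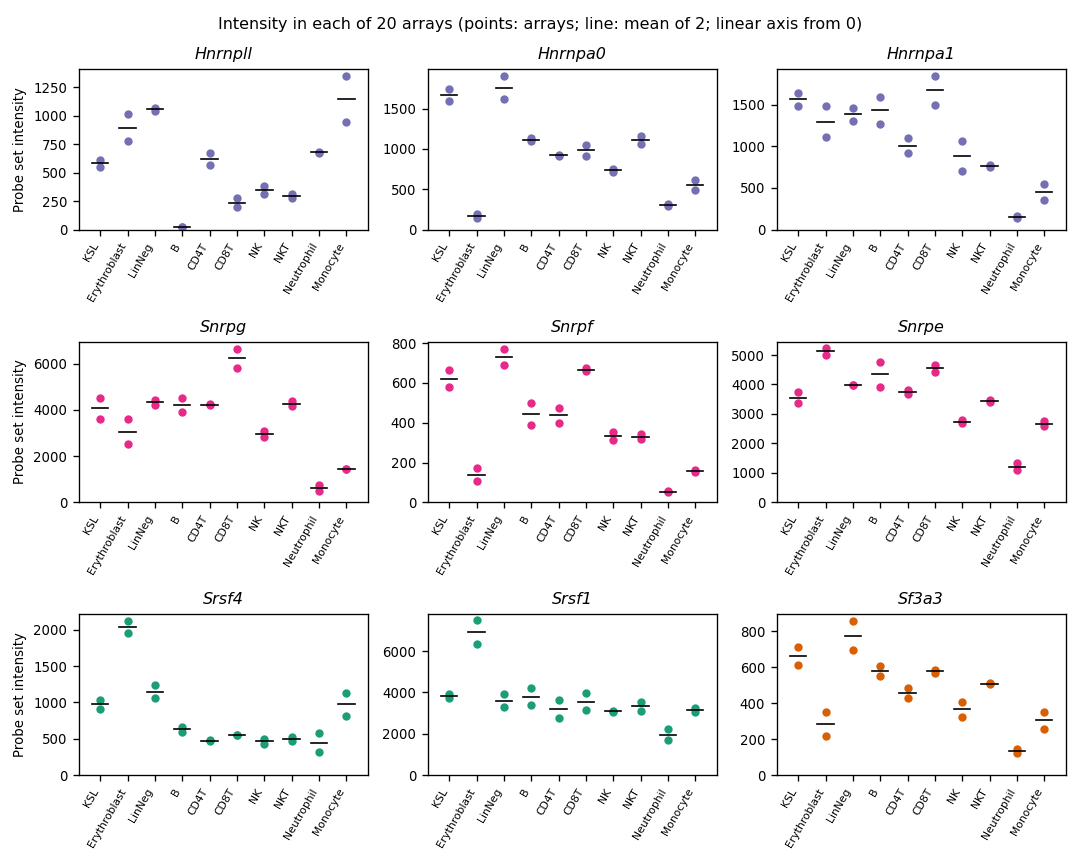
Intensity (linear axis from 0) of 9 of the genes in each of the 20 arrays, with a line at the mean of the 2 arrays of a population. Hnrnpll is near the bottom in B and highest in Monocyte, Hnrnpa0 is lowest in Erythroblast, the 3 Sm genes Snrpg, Snrpf and Snrpe are lowest in Neutrophil, and Srsf4 and Srsf1 are highest in Erythroblast.

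The hnRNP family held the gene with the widest range of all, Hnrnpll, which promotes skipping of variable CD45 exons. It had 18.4 and 24.6 in B, while CD4T had 677 and 571 and CD8T had 196 and 274. The B arrays lay far below every T cell array, and the difference was -3.79 ± 0.18 (adjusted p 9.5e-12; 7.08% of all genes were called lower in B). A second probe set gave -4.65 and correlated with the first at r = 0.987 over the 10 population means, a description of 2 readings of the same arrays. CD4T stood above CD8T by 1.40 ± 0.21 (adjusted p 0.00045), and the second probe set gave 1.64.

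Over the other populations Hnrnpll had 554 and 611 in KSL, 777 and 1018 in Erythroblast, 1041 and 1073 in LinNeg, 385 and 313 in NK, while NKT arrays were at 278 and 314, with 673 and 683 in Neutrophil, and 1348 and 949 in Monocyte. It was the 1 gene of the 46 called lower in lymphoid than in myeloid cells (-2.04 ± 0.12, adjusted p 3.6e-11). That difference was -1.31 with B left out, and CD4T replicate 1 lay above Neutrophil replicate 1. In Erythroblast it was called higher than in the other mature populations (1.48 ± 0.16), with a mean of 897 against 479 over the other 7 populations, although the Monocyte arrays lay within or above the Erythroblast values. With B left out the difference was 0.89, and the gene was not called.

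Hnrnpa0, whose protein binds AU-rich elements of mRNA, moved against its family in Erythroblast. It had 144 and 194 in Erythroblast, against 1906 and 1616 in LinNeg (-3.34 ± 0.16, adjusted p 3.3e-12), the largest difference of the 46 genes in that comparison. The other 7 mature populations ran from 289 through 915 to 1157 (-2.13 ± 0.12), and again no array overlapped. It was also the gene with the largest rise in KSL, with 1749 and 1596, while the mature arrays ran from 144 through 831 to 1157 (1.41 ± 0.12, adjusted p 3.5e-08). Lymphoid arrays ran from 717 through 991 to 1157, against 289 and 322 in Neutrophil and 614 and 496 in Monocyte (1.21 ± 0.10), and 0.79 with Monocyte alone as the myeloid side. The gene has 1 probe set, so no second reading was used. Its promoter is shown for this separation, at chr13:58128507-58128806 (-), with the same capitals.
Hnrnpa0: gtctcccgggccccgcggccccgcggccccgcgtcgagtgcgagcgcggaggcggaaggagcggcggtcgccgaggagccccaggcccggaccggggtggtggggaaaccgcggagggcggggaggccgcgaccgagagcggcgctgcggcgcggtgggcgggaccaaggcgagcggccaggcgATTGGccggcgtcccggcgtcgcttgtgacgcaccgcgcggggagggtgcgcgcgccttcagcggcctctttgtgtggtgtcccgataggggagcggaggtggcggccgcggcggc
It has 1 CCAAT on the reverse strand and no CCGGAAG.

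Of the other Hnrnp genes, most differed between Erythroblast and the other mature cells by less than 1 log2 unit. At an adjusted p under 0.05 without a minimum size, 15 of all 19 were higher and 2 lower by their brightest probe sets. Of all genes tested, 25.7% were higher and 37.1% lower. Hnrnpdl differed by 0.43, but its other probe sets gave 0.11, 0.18, -0.63, -0.88, -1.24 and -1.78. Hnrnpf differed by 0.18, and its others gave 0.21, -0.05 and -1.22. Hnrnpab, Hnrnpa2b1 and Hnrnph1 also had a negative probe set. The other probe sets of Hnrnpa1, Hnrnpc, Hnrnpd, Hnrnpk, Hnrnpll, Hnrnpr, Hnrnpu and Hnrnpul2 were all positive. The family median was 0.61, and 0.22 after quantile normalization, against -0.14 and 0.02 over all genes. Of the 3 called higher, Hnrnpd, known as AUF1 and a regulator of mRNA decay, had 1471 and 1554, while the other mature arrays ran from 438 through 514 to 823 (1.47 ± 0.17, adjusted p 2.4e-07). Its 2 dimmer probe sets gave 0.16 and 0.32. Hnrnph2, which binds G-rich stretches, had 1241 and 1186, while the others ran from 421 through 551 to 932 (1.09 ± 0.14), and 0.82 after quantile normalization.

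Hnrnpa1, a repressor of many alternative exons, was the other hnRNP gene that set lymphoid apart from myeloid cells. Its lymphoid arrays ran from 707 through 1082 to 1849, against 142 and 165 in Neutrophil and 353 and 553 in Monocyte. The sides did not overlap (2.04 ± 0.13, adjusted p 7.8e-11), and 2 other probe sets gave 0.86 and 1.51. Neutrophil was below Monocyte by -1.49 ± 0.22 (adjusted p 9.3e-05), with other probe sets at -1.31 and -0.24. Hnrnpab had 1873 and 2947 in Neutrophil, against 5303 and 4588 in Monocyte (-1.07 ± 0.16, adjusted p 0.00012), but 2 of its 6 other probe sets were positive (lowest -1.77, highest 0.43) and it fell short of 1 without Neutrophil replicate 1 (-0.74) or Monocyte replicate 1 (-0.96).

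Between KSL and LinNeg the median difference was -0.15 over the 46 genes and -0.28 over the 8 Snrp genes, against 0.01 over all genes tested; after quantile normalization these were -0.04, -0.23 and -0.02. Against the mature cells the third gene called higher in KSL, beside Hnrnpa0 and Sf3b3, was Snrpf, with 662 and 580 in KSL, while the mature arrays ran from 51.2 through 329 to 674 (1.26 ± 0.15, adjusted p 1.8e-06). CD8T reached the KSL level for this gene. At an adjusted p under 0.05 with no minimum size, 19 of 46 genes were higher in KSL than in the mature cells and 2 lower, against 27.3% and 14.7% of all genes.

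**Figure D5:**
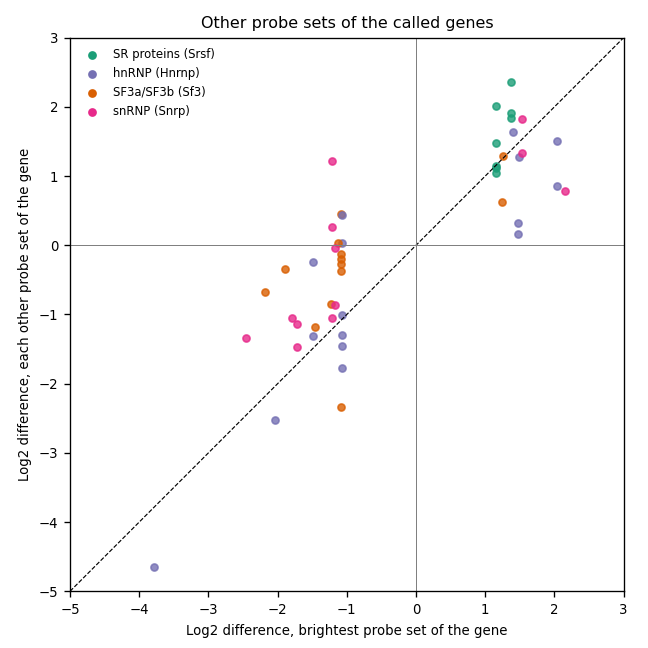
Log2 difference by every other probe set above the filter of a called gene (y axis) against that of its brightest probe set (x axis), coloured by family; each point is 1 probe set in 1 comparison, and the dashed line marks equal values. Most points lie in the same quadrant as their gene's brightest probe set, and those at the upper left belong to Snrpd3, Sf3b2, Sf3a3 and Hnrnpab.

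Of the 40 calls, 26 concern a gene with another probe set above the filter and 4 of those have at least 1 probe set of the opposite sign. They are Snrpd3 and Sf3b2 in Erythroblast and Hnrnpab and Sf3a3 in Neutrophil.

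Genes that work with these factors were read from lists. The snRNP assembly list holds the SMN complex and its partners, which load Sm proteins onto the RNA. In Erythroblast against LinNeg 9 of 13 were called lower and 1 higher, where 29.3% and 14.6% of all genes were. Prmt5, which methylates Sm proteins, was at 69.9 in Erythroblast, against 409 in LinNeg (-2.43 ± 0.23), Gemin5, which recognises the snRNA, at 24.1 against 182 (-2.77 ± 0.41), Coil, the marker of Cajal bodies, at 25.5 against 156 (-2.32 ± 0.44), and Gemin7 at 246 against 102 (1.14 ± 0.30). In lymphoid against myeloid cells 5 of 13 were called higher and 0 lower, where 17.6% and 12.1% of all genes were. They were led by Prmt5 (187 against 22.3, 2.69 ± 0.14), Snupn, the import adaptor of snRNPs (137 against 25.9, 2.35 ± 0.26), and Coil (1.84 ± 0.26). The list's median was 0.96 there, and -1.79 in Erythroblast minus LinNeg.

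SR proteins are phosphorylated by the SRPK and CLK kinases. Of the 12 kinases and import factors, 2 were called higher and 5 lower in Erythroblast than in the other mature cells, where 17.6% and 28.8% of all genes were. Srpk2 was at 84.8 in Erythroblast, against 953 (-3.29 ± 0.18), Srpk1 at 103 against 489 (-1.88 ± 0.15), while Clk3 was at 1044 against 233 (2.13 ± 0.13) and the phosphatase gene Ppm1g at 1961 against 629 (1.68 ± 0.11). Srpk3 averaged 2459 in B, against 11.9 in CD4T and CD8T, and was called higher in B (adjusted p 3.8e-09). The T cell arrays lay from 4.59 to 24.2, so the fitted size depends on the pseudocount and is not read as a fold. Srpk1 was at 247 in B, against 911 in CD4T and CD8T (-1.85 ± 0.18).

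Among 63 core spliceosome genes outside the 4 families, 10 were called higher and 2 lower in lymphoid than in myeloid cells, where 17.6% and 12.1% of all genes were. They were led by Snrnp48 of the minor spliceosome (2.04 ± 0.10) and Prpf19 (1.47 ± 0.08). In Erythroblast against the other mature cells 7 were called higher and 7 lower, where 17.6% and 28.8% of all genes were. Prpf18 differed by 2.05 ± 0.20 there and Prpf19 by -1.63 ± 0.10. Of 34 other splicing regulators, 5 were called higher and 5 lower in that comparison, both below the shares of all genes. Celf2 had 2.13 and 2.28 in Erythroblast, under the pseudocount, against a mean of 1489 in the other mature populations, and was called lower (adjusted p 9.8e-20). Its fitted size depends on the pseudocount and is not read as a fold. Mbnl2, of the muscleblind family, was at 65.6 in Erythroblast, against 580 (-2.95 ± 0.13), and Luc7l2 at 2909 against 964 (1.59 ± 0.11). In lymphoid against myeloid cells 6 of the 34 were called higher, near the 17.6% of all genes, and 1, Mbnl3, lower (312 against 1247, -1.95 ± 0.11), where 12.1% of all genes were.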

How the data were processed

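RNA of 10 sorted populations (20 arrays) was measured on Affymetrix Mouse Genome 430 2.0 arrays from 3000 cells each, with ISOGEN extraction and 2-cycle amplification, per the labels' protocols. The authors deposited linear intensities for 45101 probe sets; the mean of each array without its lowest and highest 2% is 100, while neither labels nor headers name the software behind them. The number of arrays limits the precision, with 10 residual degrees of freedom.

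Probe sets were named from the platform annotation: 34945 carry 1 symbol, 932 several, 9160 none, and 64 controls were left out. The brightest single-symbol probe set stood for a gene. Intensities were transformed as log2(intensity + 6.75), the pseudocount being the 25th percentile of all values. Genes with no population mean above 4.89, the median on that scale, were left out, leaving 14063 of 18193. limma 3.58.1 in R 4.3.3 fitted 1 factor of 10 populations over all 20 arrays (lmFit, eBayes with trend), with Benjamini-Hochberg adjustment over all genes tested within each comparison. Side means of several populations weight each population equally. On data simulated for Neutrophil minus Monocyte with 200 of 14063 genes changed, 84% of changes of 2 log2 units and 93% of 3 were recovered, with 9 false calls. No smaller change was simulated, so these rates do not cover the calls described here in that comparison, which ran from -1.07 to -1.71.

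The genes described and the lists were chosen with earlier results of these data known. Named genes are the members, by comparison the 6 called with the largest difference in each direction, the 6 widest and 4 narrowest ranges, and up to 3 called genes per direction from each list; Sf3b1, Srsf2, Srsf12, Snrpn and the snRNP genes not called were added after their values were seen. Replicate numbers were not used to pair the samples. Deviations of same-numbered arrays correlated at -0.092 to 0.206 over 45 pairs of populations, with 1 above 0.1. This cannot show whether same-numbered samples shared animals or a sort, which the labels do not say. Promoters came from RefSeq (GRCm38.p6). Alternatives were 2 other pseudocounts, 2 scalings, 2 filters, 2 choices of probe set, a replicate block, 2 call rules and leaving out each array, plus populations left out, chosen after seeing the data.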

Additional observations from a re-analysis of the deposited data

How the results depend on the processing

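Counts of the 46 genes called moved most with the call rule. With no minimum difference 21 were called in KSL against the mature populations, 1 in KSL against LinNeg, 29 in Erythroblast against LinNeg, 33 in Erythroblast against the other mature populations, 33 in lymphoid against myeloid cells, 18 in Neutrophil against Monocyte and 6 in B against T cells. The treat test against a difference of 1 gave 1, 0, 4, 7, 5, 0 and 1 in the same order, and 0 in CD4T against CD8T. Quantile normalization gave 5 in KSL against the mature populations, and the mean of probe sets 1 in CD4T against CD8T. With Neutrophil alone as the myeloid side 16 were called and with Monocyte alone 5, both chosen after seeing the data. Monocyte left out of 2 comparisons and NK left out of 3 lost 0 of their calls, and B left out of 3 lost 2 of 21. With the replicate block the counts included 44 genes by the F test and 3 in KSL against the mature populations, and 40 of 40 single calls were unchanged.

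Leaving out 1 array at a time, the F test passed 42 to 44 genes, and the comparisons called 3 to 4, 0 to 0, 5 to 8, 10 to 13, 7 to 10, 5 to 10, 1 to 2 and 2 to 2 genes in the order above with CD4T against CD8T last. Erythroblast against LinNeg had its 5 without LinNeg replicate 1, Neutrophil against Monocyte its 5 without Neutrophil replicate 1, and B against T cells its 1 without CD8T replicate 1. Of 800 single calls so recomputed 788 held and 12 were lost, all of the same sign. The 800 include arrays on neither side of a comparison, whose removal cannot change the difference, so the 788 overstate how stable the calls were. Of 40 calls, 38 held under quantile normalization, 37 under array median centring and 30 with the mean of probe sets, where 9 were lost and Snrpd3 in Erythroblast minus LinNeg reversed (0.0863). Without probe sets marked as shared 34 of 38 held. Among list genes, Cdc40 (0.0244, mean of probe sets) and Ewsr1 (0.4247, without shared probe sets) reversed in Erythroblast minus LinNeg, and Srpk3 (0.4551, without shared probe sets) and Gemin8 (-0.0745, mean of probe sets) in Erythroblast minus the other mature populations. The causes were not tested, and dim probe sets limit what can be read from such genes.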
